A study of Mus musculus with 4 samples.

Results

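Of the genes measured, 9 encode matrix or membrane proteins of the later granules of neutrophils: 8 of the secondary (specific) granules, namely Ltf, Camp, Ngp, Lcn2, Olfm4, Cd177, Pglyrp1 and Mmp8, and 1 of the tertiary (gelatinase) granules, Mmp9. They were chosen by name, through the platform annotation, from 19938 genes with a probe set of a single symbol, and each had 1 probe set. The levels came from 4 mouse Affymetrix whole-transcript arrays, 1 for each group. The groups, all of C57BL/6 background, were colony-forming cells grown from long-term haematopoietic stem cells transduced with CreER (LT-HSC CreER) or with mock (LT-HSC mock), and from short-term haematopoietic stem cells transduced with CreER (ST-HSC CreER) or with mock (ST-HSC mock), called LT-HSC and ST-HSC colonies. CreER joins Cre recombinase to the hormone-binding domain of the oestrogen receptor, which keeps the enzyme inactive until ligand is added. The series title gives the cells as conditionally expressing MLL-ENL, a leukaemia fusion of Kmt2a and Mllt1. Whether the mock cells carry or express the conditional fusion, what drives it, whether ligand was added and how many animals were used is not stated in the labels, so what CreER minus mock contrasts beyond the transduction itself is not known here. Colonies grew in methylcellulose with stem cell factor, IL-3, IL-6 and GM-CSF. The study used these arrays to screen for candidate genes of leukaemic transformation, by setting CreER beside mock and LT-HSC colonies beside ST-HSC colonies. With 1 array per group, no pairwise difference has a replicate check.

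Neutrophil precursors fill their granules in sequence. Promyelocytes make the primary granules with myeloperoxidase and elastase, myelocytes and metamyelocytes make the specific granules, and band cells make the gelatinase granules, so the set of granule messages in a cell reflects its stage. In mice the transcription factor C/EBP-epsilon (Cebpe) is needed for the specific granule genes, and GFI1 and PU.1 (Spi1) act at earlier steps of the same lineage. In bulk RNA of colonies, fewer cells at a stage and less RNA per cell cannot be told apart.

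The promoters of members with contrasting array patterns are shown first: Olfm4 had the widest range over the arrays, Ltf and Camp had like profiles, and Ngp had the most matches to the C/EBP motif searched. Each sequence is the 250 bases before the annotated start, from RefSeq on build GRCm38.p6, 5′ to 3′ in the gene's own direction, and capitals mark matches to TTNNGNAA, a short form of the C/EBP motif, on either strand.
Olfm4 promoter (chr14:80000052-80000301, + strand): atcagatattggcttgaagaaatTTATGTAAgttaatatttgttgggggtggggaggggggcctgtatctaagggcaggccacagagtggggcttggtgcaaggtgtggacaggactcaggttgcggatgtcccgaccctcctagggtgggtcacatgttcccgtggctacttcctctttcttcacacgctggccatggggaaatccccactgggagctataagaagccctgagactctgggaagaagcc
Ltf promoter (chr9:111019042-111019291, + strand): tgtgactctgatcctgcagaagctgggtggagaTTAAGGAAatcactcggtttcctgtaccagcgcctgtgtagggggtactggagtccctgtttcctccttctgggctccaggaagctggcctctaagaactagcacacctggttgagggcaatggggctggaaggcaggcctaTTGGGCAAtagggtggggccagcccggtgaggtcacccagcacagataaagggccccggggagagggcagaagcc
Camp promoter (chr9:109849457-109849706, - strand): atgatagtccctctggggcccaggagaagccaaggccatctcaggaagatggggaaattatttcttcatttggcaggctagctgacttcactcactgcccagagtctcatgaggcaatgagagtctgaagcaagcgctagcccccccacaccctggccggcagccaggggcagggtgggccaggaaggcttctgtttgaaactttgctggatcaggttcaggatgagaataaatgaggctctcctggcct
Ngp promoter (chr9:110419558-110419807, + strand): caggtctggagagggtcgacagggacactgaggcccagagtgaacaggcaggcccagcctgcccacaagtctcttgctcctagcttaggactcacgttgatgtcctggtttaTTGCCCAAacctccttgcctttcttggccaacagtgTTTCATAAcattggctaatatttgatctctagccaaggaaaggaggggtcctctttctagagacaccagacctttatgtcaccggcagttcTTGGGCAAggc

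A promoter was in the RefSeq table for 8 of the 9 members. The C/EBP form had 10 matches in 6 of these 8, those of Ltf, Ngp, Lcn2, Olfm4, Cd177 and Mmp8, whereas 36.8% of all 32851 promoters of the same length held at least 1. The Camp and Pglyrp1 promoters held none in this window. The Ltf matches began 217 and 75 bases before the start, and the Olfm4 match 227 bases before it. Ngp had matches beginning 138, 102 and 11 bases before the start. GAGGAA, a core bound by ETS factors such as PU.1, was found on either strand in 6 of the 8, those of Ltf, Lcn2, Olfm4, Cd177, Pglyrp1 and Mmp8, against 23.3% of all promoters. No match to one form overlapped a match to the other in these promoters. Camp had neither form in its window, and its 4-array profile was close to that of Ltf. Also searched was TATAAA, found in 1 of the 8, that of Cd177, against 12.4% of all promoters.

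All 9 members were strongly detected in every group, above the signal floor (the array's median over probe sets with a single symbol, 8.07 to 8.13 on the log2 scale) on all 4 arrays. Every one of the 9 was highest on the ST-HSC CreER array, where 23.4% of the 10411 genes that passed the floor on any array had their highest level. The lowest array was LT-HSC mock for 6 members, ST-HSC mock for Olfm4 and Mmp9, and LT-HSC CreER for Mmp8; for all genes these shares were 28.1%, 16.7% and 30.0%. The members' levels ran from 9.55 to 14.11.

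**Figure D1:**
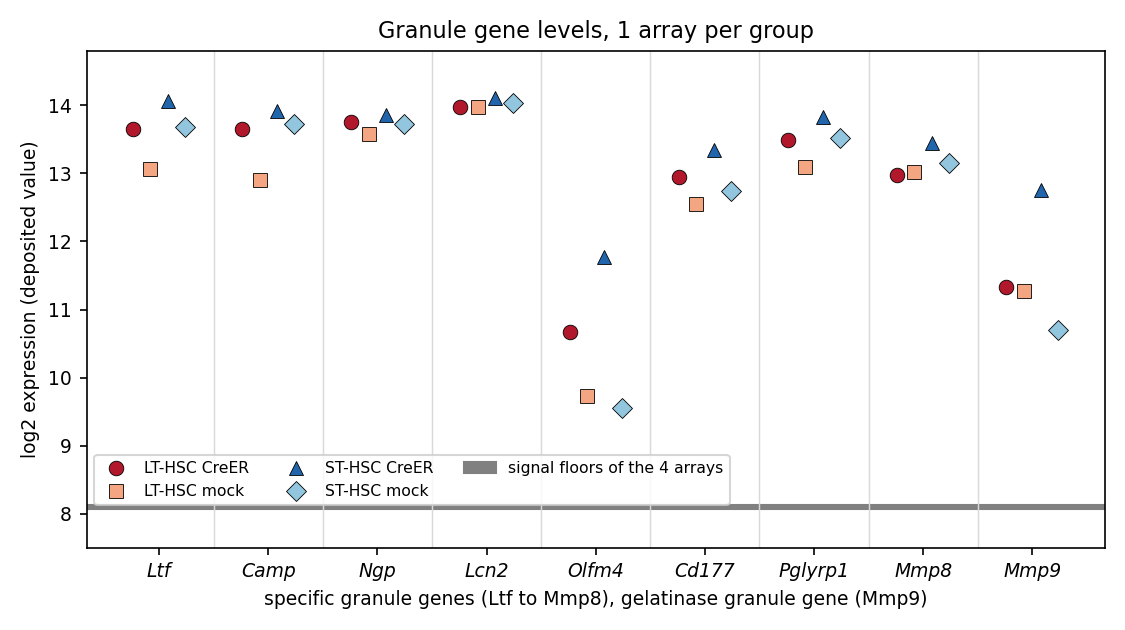
Log2 expression of the 9 granule genes (x axis) on the 4 arrays, 1 point per array, with the range of the signal floors as a grey band. All 9 genes are highest on the ST-HSC CreER array, by 1.11 or more over the next array for Olfm4 and Mmp9 and by under 0.4 for the others; levels of different genes are not comparable, since each probe set has its own response.

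Ltf encodes lactoferrin, the iron-binding protein of specific granules. Its log2 level was 13.65 in LT-HSC CreER, 13.07 in LT-HSC mock, 14.06 in ST-HSC CreER and 13.68 in ST-HSC mock cells. LT-HSC mock cells thus stood apart on the low side, while the LT-HSC CreER and ST-HSC mock levels lay within 0.03 of each other. Ltf was higher with CreER by 0.59 in LT-HSC colonies and by 0.38 in ST-HSC colonies. It was lower in LT-HSC colonies than in ST-HSC colonies by both comparisons, at -0.40 with CreER and -0.61 with mock.

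Camp encodes the cathelicidin precursor, from which the antimicrobial peptide CRAMP is cut in mice. Its level was 13.65 in LT-HSC CreER, 12.90 in LT-HSC mock, 13.92 in ST-HSC CreER and 13.72 in ST-HSC mock cells. LT-HSC mock cells were again the low array, 0.75 below the nearest of the others, and the remaining levels spanned 0.27. The CreER minus mock difference was 0.75 (1.68-fold) in LT-HSC colonies and 0.20 in ST-HSC colonies. LT-HSC minus ST-HSC was -0.27 with CreER and -0.82 with mock.

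Pglyrp1, a peptidoglycan recognition protein that acts on bacterial cell walls, followed the same order of arrays. Its level was 13.50 in LT-HSC CreER, 13.10 in LT-HSC mock, 13.83 in ST-HSC CreER and 13.52 in ST-HSC mock cells. The LT-HSC CreER and ST-HSC mock levels were again within 0.03. CreER minus mock was 0.40 in LT-HSC colonies and 0.30 in ST-HSC colonies, and LT-HSC minus ST-HSC was -0.33 with CreER and -0.42 with mock.

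Cd177, a GPI-anchored glycoprotein of the neutrophil surface and of granule membranes that binds PECAM1 in humans, had levels of 12.94 in LT-HSC CreER, 12.56 in LT-HSC mock, 13.34 in ST-HSC CreER and 12.75 in ST-HSC mock cells. Both CreER arrays stood above both mock arrays. CreER minus mock was 0.39 in LT-HSC colonies and 0.59 (1.51-fold) in ST-HSC colonies, and LT-HSC minus ST-HSC was -0.40 with CreER and -0.19 with mock.

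Ngp and Lcn2 varied least. Ngp, which encodes a cathelin-related protein of neutrophil granules, had levels of 13.75 in LT-HSC CreER, 13.57 in LT-HSC mock, 13.86 in ST-HSC CreER and 13.72 in ST-HSC mock cells, a range of 0.28. Lcn2, the lipocalin that withholds iron from bacteria by binding their siderophores, had levels of 13.98, 13.97, 14.11 and 14.03 in the same order of groups, a range of 0.14. Both kept the order with ST-HSC CreER on top and LT-HSC mock at the bottom, but the LT-HSC arrays differed by only 0.01 for Lcn2. Lcn2 lay between 0.46 and 0.62 below the highest gene value of its array. Array signals near the top of the range can be compressed, and other members came near it too. Their smallest gap on any array was 0.52 for Ltf, 0.66 for Camp, 0.72 for Ngp and 0.75 for Pglyrp1. It was 1.12 for Mmp8, 1.24 for Cd177, 1.82 for Mmp9 and 2.80 for Olfm4. The part of such compression in the small range of Lcn2, or in the size of the other members' differences, was not tested.

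Mmp8 encodes neutrophil collagenase, which cuts fibrillar collagens. Its level was 12.97 in LT-HSC CreER, 13.01 in LT-HSC mock, 13.45 in ST-HSC CreER and 13.15 in ST-HSC mock cells. It was the one member with a CreER minus mock difference below 0, at -0.040 in LT-HSC colonies, against 0.30 in ST-HSC colonies. Both LT-HSC arrays stood below both ST-HSC arrays, by 0.48 with CreER and by 0.14 with mock.

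Olfm4 encodes olfactomedin 4, a glycoprotein found in the specific granules of only a subset of neutrophils. Its level was 10.66 in LT-HSC CreER, 9.73 in LT-HSC mock, 11.77 in ST-HSC CreER and 9.55 in ST-HSC mock cells. Both CreER arrays stood above both mock arrays, and the mock arrays were within 0.18. In LT-HSC colonies the CreER minus mock difference was 0.93 (1.91-fold), just under the 2-fold threshold, and in ST-HSC colonies it was 2.22. LT-HSC minus ST-HSC was -1.11 with CreER and 0.18 with mock.

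Mmp9 encodes gelatinase B, the protease that names the gelatinase granules and cuts denatured collagen. Its level was 11.32 in LT-HSC CreER, 11.28 in LT-HSC mock, 12.75 in ST-HSC CreER and 10.70 in ST-HSC mock cells. The LT-HSC levels lay between those of ST-HSC CreER and ST-HSC mock cells and differed by 0.05. In ST-HSC colonies CreER minus mock was 2.05 (4.15-fold). LT-HSC minus ST-HSC was -1.43 with CreER (2.69-fold lower in LT-HSC colonies) and 0.58 with mock.

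Set side by side, CreER against mock gave 8 of 9 members above 0 in LT-HSC colonies, where 44.4% of 10172 genes were above 0. In ST-HSC colonies all 9 were above 0, where 42.6% of 10047 genes were. The members' median difference was 0.39 in LT-HSC colonies, beside a median of -0.03 over all genes, and 0.30 in ST-HSC colonies, beside -0.03. By a size rule (a difference of 1 log2 unit or more in either direction, with the higher array above its floor), none of the 9 members was higher in LT-HSC colonies, where 0.108% of genes were, and Olfm4 and Mmp9, 2 of 9, were higher in ST-HSC colonies, where 0.438% of genes were. The CreER effect was larger in LT-HSC colonies for Ltf, Camp, Ngp and Pglyrp1 and larger in ST-HSC colonies for Lcn2, Olfm4, Cd177, Mmp8 and Mmp9. The ST-HSC effect minus the LT-HSC effect ran from -0.55 for Camp to 1.29 for Olfm4 and 2.01 for Mmp9, and with 1 array per group it has no test.

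**Figure D2:**
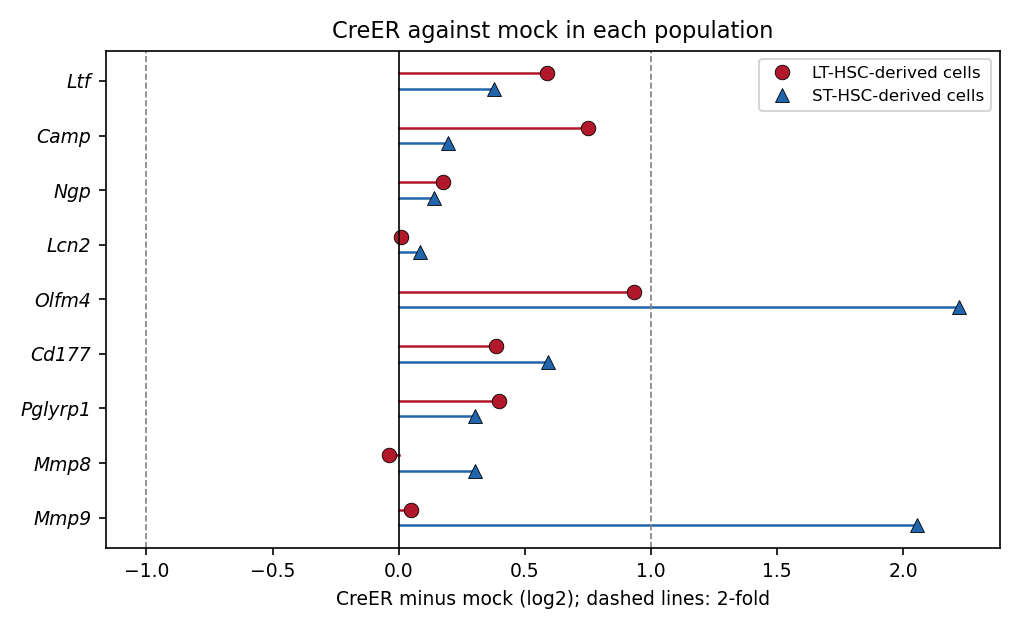
CreER minus mock log2 difference (x axis) of each granule gene in LT-HSC colonies (circles) and ST-HSC colonies (triangles), each the difference of 2 arrays, with 2-fold marked by dashed lines. Olfm4 and Mmp9 pass 2-fold in ST-HSC colonies at 2.22 and 2.05, and Mmp8 in LT-HSC colonies is the one point below 0.

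Between the populations with CreER, all 9 members were lower in LT-HSC colonies than in ST-HSC colonies, where 46.1% of 10189 genes were above 0. Their median was -0.40, beside -0.02 over all genes, and Olfm4 and Mmp9 were at least 2-fold lower, where 0.550% of genes were. With mock, 7 of 9 were lower and Olfm4 and Mmp9 were above 0, where 45.1% of 10208 genes were above 0. The median with mock was -0.14, beside -0.03 over all genes, and no member was 2-fold different in either direction, where 3.12% of genes were. These comparisons share arrays with those of CreER against mock, so the 4 sets of differences are not separate observations.

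**Figure D3:**
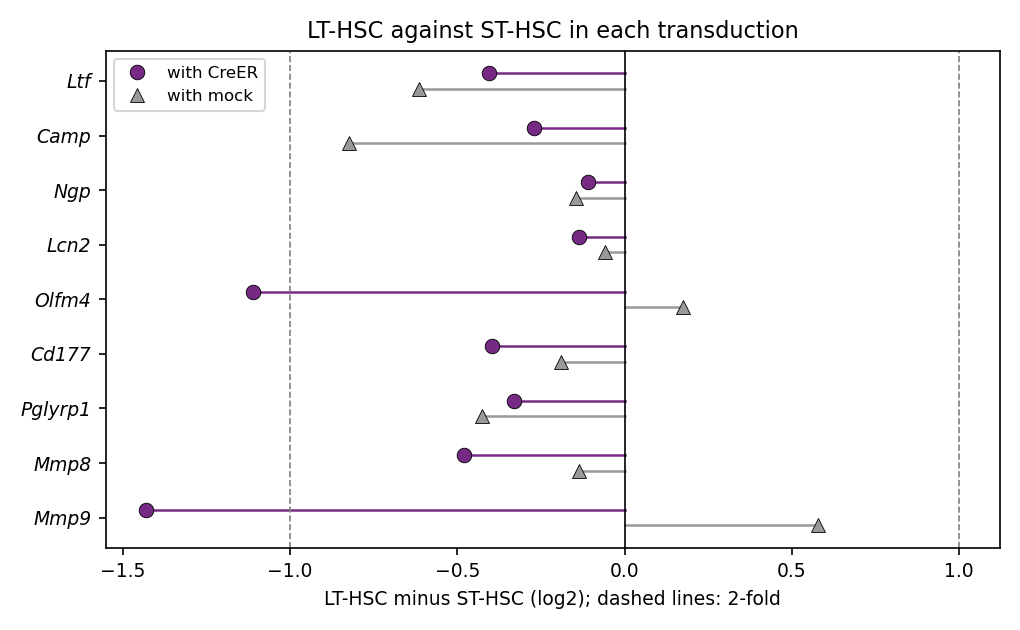
LT-HSC minus ST-HSC log2 difference (x axis) of each granule gene with CreER (circles) and with mock (triangles), each the difference of 2 arrays, with 2-fold marked by dashed lines. With CreER all 9 genes lie below 0, down to -1.43 for Mmp9, and with mock Olfm4 and Mmp9 lie above 0 at 0.18 and 0.58.

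An additive limma fit with terms for transduction and population used all 4 arrays and 10411 genes. It sets each effect against a spread that joins the gene's departure from additivity with a prior pooled over all fitted genes. The gene's own part has 1 residual degree of freedom and the prior has 4.27. Neither part comes from biological replicates. For CreER against mock, 0 of the 9 members, and 0.0% of all genes, passed a limma adjusted p of 0.05, while 5 of 9 (Ltf, Camp, Olfm4, Cd177 and Pglyrp1) and 10.1% of all genes had an unadjusted p under 0.05. Olfm4 had the largest CreER effect among the members, 1.58 ± 0.30 (SE). It was higher with CreER in both pairs of arrays, but by 0.93 in LT-HSC colonies and by 2.22 in ST-HSC colonies. Its SE is drawn toward the spread pooled over all genes, so it understates this gap between the pairs. The Olfm4 adjusted p in limma was 0.316 (0.227 to 0.420 under the alternatives), the lowest value in that fit and one it shared with other genes. Mmp9 had an effect of 1.05 ± 0.45 (SE) and a limma adjusted p of 0.515, its 2 pairs differing in size. For LT-HSC against ST-HSC, 0 of 9 members passed a limma adjusted p of 0.05, where 6.27% of all genes did, and 5 of 9 (Ltf, Camp, Cd177, Pglyrp1 and Mmp8) had an unadjusted p under 0.05, where 25.7% of genes did. Ltf came closest, at -0.51 ± 0.10 (SE) with a limma adjusted p of 0.0543, lower in LT-HSC colonies in both pairs. Ltf passed 0.05 with a trend in the variance prior, at 0.0240, and without a floor, at 0.0467, and so did Pglyrp1 with the trend, at 0.0354. Over all genes, 698 of 10411 passed with the trend and 888 of 19938 without a floor.

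The members' 4-array profiles differed in size and in shape. Measured as the Euclidean distance between 4-array profiles after subtracting each gene's mean, the closest pairs were Ngp and Lcn2 (0.13), both nearly flat, Ltf and Camp (0.18) and Ltf and Pglyrp1 (0.20). Olfm4 and Mmp9 were 0.64 apart and more than 1 from every other member, and they also had the widest ranges, 2.22 and 2.05. The distance was not scaled to a gene's range, so it reflects the size of the differences as well as their shape. Ltf, Camp, Lcn2 and Pglyrp1 had the order ST-HSC CreER, ST-HSC mock, LT-HSC CreER, LT-HSC mock from high to low, an order found in 8.19% of genes past the floor. Ngp and Cd177 had LT-HSC CreER before ST-HSC mock (3.44% of genes), Olfm4 and Mmp9 had both CreER arrays before LT-HSC mock and then ST-HSC mock (1.82%), and Mmp8 had both ST-HSC arrays before LT-HSC mock and LT-HSC CreER (6.18%). For Ltf, Ngp, Lcn2, Pglyrp1 and Mmp9 the middle levels were between 0.03 and 0.05 apart, so their order there rests on small differences, as does that of the lowest levels of Lcn2 (0.01 apart) and Mmp8 (0.04).

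For the members with a range of at least 1, the 3 genes with the nearest profiles over the 4 arrays were looked up. For Olfm4 they were Slfn4, a schlafen gene (distance 0.52), Ceacam10 (0.71) and the gene model A530064D06Rik (0.73). Ceacam10, of the carcinoembryonic antigen family, had levels of 11.66 in LT-HSC CreER, 11.23 in LT-HSC mock, 12.99 in ST-HSC CreER and 11.50 in ST-HSC mock cells. For Mmp9 they were A530064D06Rik (0.41), the connexin gene Gja5 (0.42) and Slfn1 (0.47). For Camp they were Rogdi (0.06), Far2 (0.08) and Gatm (0.10), the last encoding the enzyme that starts creatine synthesis. The 3 nearest profiles to Camp were closer to it than those of Olfm4 and Mmp9 were to them. Camp also had a smaller range, 1.02 against 2.22 for Olfm4 and 2.05 for Mmp9. Since the distance is not scaled to range, these distances are not comparable between the members.

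**Figure D4:**
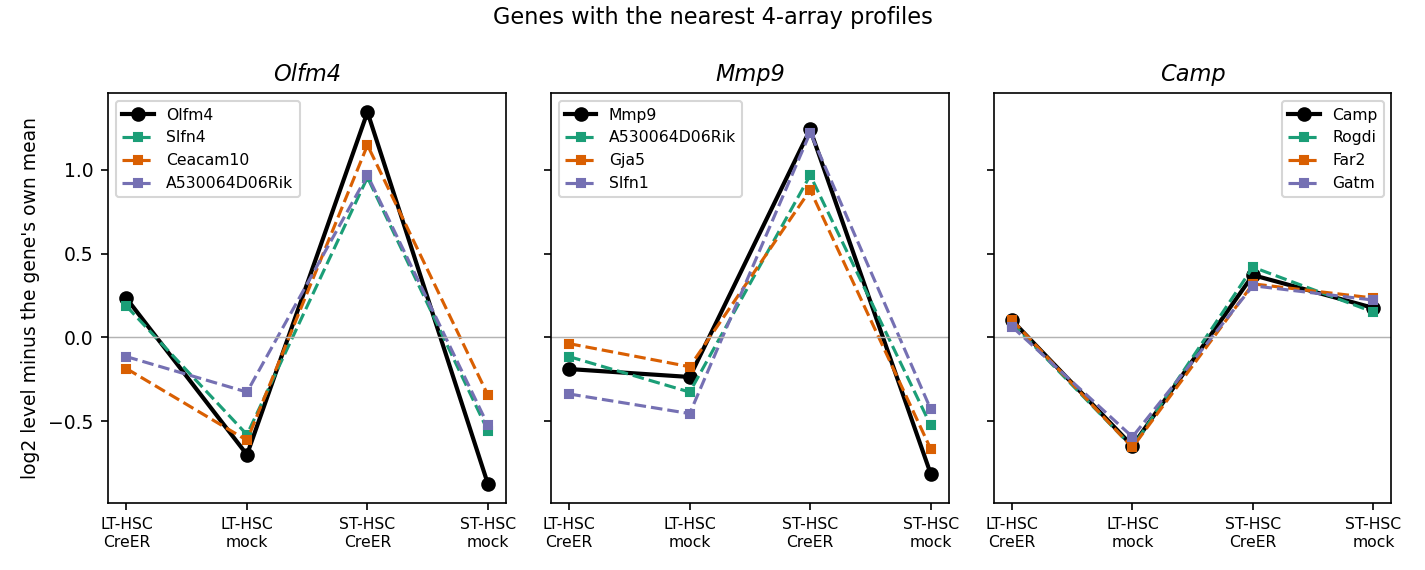
Log2 level minus the gene's own mean over the 4 arrays (y axis) for Olfm4, Mmp9 and Camp (black) and the 3 genes with the nearest profile to each (colours), 1 point per array. Olfm4 and Mmp9 peak on the ST-HSC CreER array with smaller peaks in their neighbours, whereas Camp dips on the LT-HSC mock array and its nearest genes lie at distances of 0.06 to 0.10.

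Ceacam10 is also the next protein-coding gene to Cd177 on chromosome 7 of assembly GRCm38.p6. Over all members there were 18 such flanking genes, all measured, of which 12 passed the floor on some array. Of those 12, 3 had their highest level on ST-HSC CreER, namely Klhl18 beside Ngp, 1110008P14Rik beside Lcn2 and Ceacam10. Ceacam10 was the one flanking gene that met the size rule in any comparison, at 1.49 for CreER minus mock in ST-HSC colonies and -1.33 for LT-HSC minus ST-HSC with CreER. The flanking genes of Ltf (Rtp3, under the floor, and Ccrl2) and of Mmp9 (Zfp335 and, under the floor, Slc12a5) differed by at most 0.56 in any comparison. Mmp10, the metalloproteinase gene next to Mmp8, stayed under the floor on all arrays, and Mmp27 on the other side was highest in LT-HSC mock cells.

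Other proteins that neutrophils store in specific and gelatinase granules or their membranes were set beside the members. Of 22 listed genes, 18 were measured and 17 passed the floor, and 11 of the 17 had their highest level on ST-HSC CreER. Their median CreER minus mock difference was -0.11 in LT-HSC colonies, with 6 of 17 above 0, and 0.13 in ST-HSC colonies, with 13 of 17 above 0. At least 2-fold higher with CreER were Orm1, an acute-phase carrier protein, in LT-HSC colonies (1.30) and the membrane-anchored metalloproteinase Mmp25 in ST-HSC colonies (1.29). Timp2, a metalloproteinase inhibitor, differed by -0.33 in LT-HSC colonies and 0.90 in ST-HSC colonies. The haptoglobin gene Hp differed by 0.54 in LT-HSC colonies and -0.10 in ST-HSC colonies, and Itgam, the CD11b chain held in these granule membranes, by 0.02 and 0.21. Between the populations with CreER, 16 of the 17 genes were below 0, with a median of -0.19 and Orm1 at -1.26. With mock 8 of 17 were below 0 and 9 above, with a median of 0.02 and Orm1 at -1.80.

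Lists for the granule steps before and after the specific granules were set beside the members; a gene can stand in several lists. The primary granule list, with 13 genes past the floor, had a median CreER minus mock difference of 0.34 in LT-HSC colonies, with Fcnb at 1.65 and the proteinase 3 gene Prtn3 at 0.89, and of 0.00 in ST-HSC colonies, where no gene exceeded 0.27. The late mature neutrophil list, with 21 genes, had a median of 0.10 in LT-HSC colonies and of 0.39 in ST-HSC colonies. In ST-HSC colonies the chemokine receptor gene Cxcr2 (1.64), Retnlg (1.57), Mmp25 and Asprv1 (1.02) were at least 2-fold higher with CreER. In LT-HSC colonies these genes differed by -0.27, -0.79, -0.15 and 0.64 in the same order. Cxcr2 and Retnlg had their highest level on LT-HSC mock and their lowest on ST-HSC mock. The medians of the 9 members were 0.39 and 0.30; differences between lists were not tested. On the ST-HSC CreER array 14 of 21 late mature genes had their highest level, against 4 of 13 primary granule genes. Ly6g, the surface antigen that marks mouse neutrophils, had levels of 13.08 in LT-HSC CreER, 12.64 in LT-HSC mock, 13.81 in ST-HSC CreER and 13.11 in ST-HSC mock cells, with the ST-HSC CreER array on top.

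**Figure D5:**
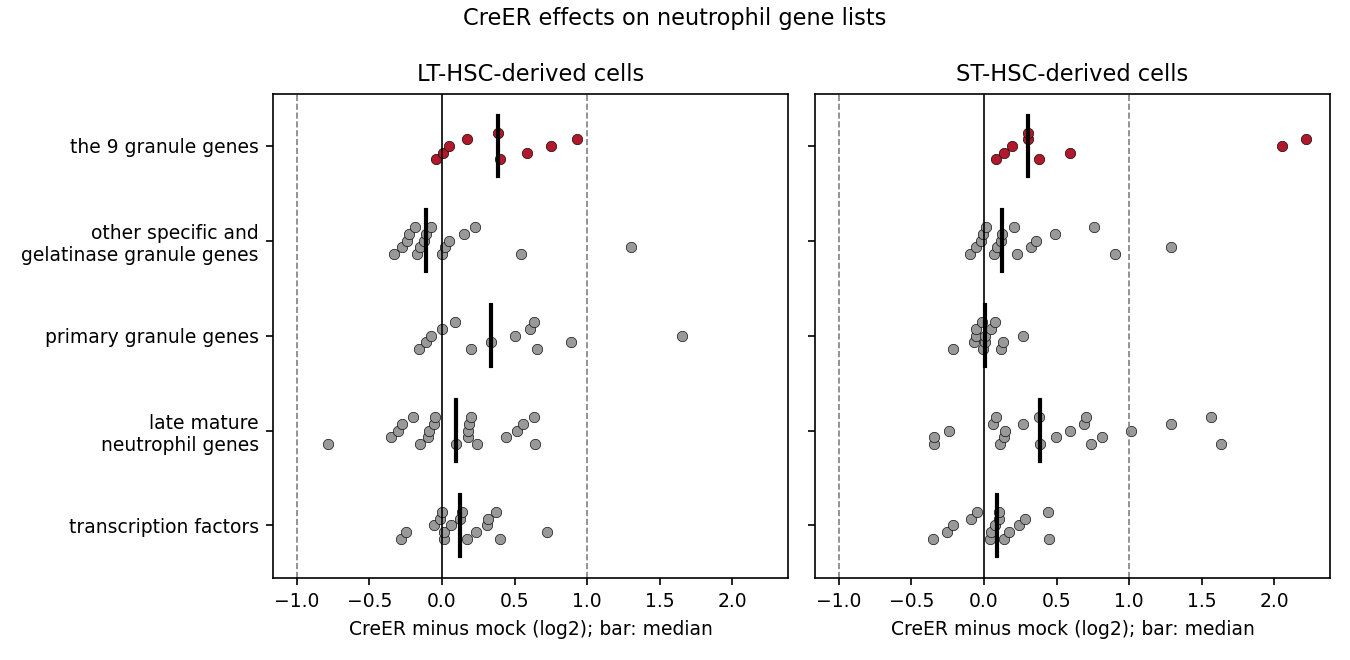
CreER minus mock log2 difference (x axis) in LT-HSC colonies (left) and ST-HSC colonies (right) for the 9 granule genes (red) and other neutrophil lists (grey), 1 point per gene above the signal floor on its higher array, with list medians as black bars. The 9 granule genes have medians of 0.39 and 0.30, the primary granule genes 0.34 and 0.00, and the late mature genes 0.10 and 0.39.

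Transcription factors of the lineage differed by less than 2-fold between CreER and mock. Cebpe had levels of 12.26 in LT-HSC CreER, 12.03 in LT-HSC mock, 12.41 in ST-HSC CreER and 12.13 in ST-HSC mock cells, so both CreER arrays stood above both mock arrays, by 0.23 and 0.29 within the populations. Of 17 measured factors past the floor none was 2-fold different between CreER and mock in either population, with medians of 0.12 and 0.09. Few genes of any kind were: 0.108% of all genes in LT-HSC colonies and 0.438% in ST-HSC colonies were at least 2-fold higher with CreER. The count of factors therefore does not set them apart from other genes. Cebpd differed by 0.72 in LT-HSC colonies and 0.24 in ST-HSC colonies, Gfi1 by 0.40 and -0.05, Klf5 by 0.00 and 0.45 and Spi1 by -0.06 and 0.10. The megakaryocyte and erythroid factors Gata1 and Gfi1b and the immediate early gene Egr1 were at least 2-fold higher in LT-HSC colonies, by 1.31, 1.12 and 1.37 with CreER and by 1.76, 1.21 and 1.02 with mock. Among receptors tied to the members' proteins, the granulocyte growth factor receptor gene Csf3r differed by -0.06 in LT-HSC colonies and 0.60 in ST-HSC colonies with CreER, and Trem1, whose product binds PGLYRP1 in humans, by 0.24 and 0.73. Pecam1 was higher in LT-HSC colonies by 1.62 with CreER and 2.29 with mock. The lipocalin receptor gene Slc22a17 differed by at most 0.20 in any comparison, and the other, Lrp2, was under the floor.

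Relatives of the members were mostly under the signal floor. Of 21 measured family members, 12 were under the floor on every array, among them Olfm2, Olfm3, Pglyrp3, Pglyrp4, Mmp3, Mmp7, Lcn3, Lcn4 and Lcn5. Of the 9 past the floor, Stfa2 and Stfa3, stefins of the cystatin superfamily, had their highest level on ST-HSC CreER. Stfa3 differed by 0.69 in LT-HSC colonies and 1.04 in ST-HSC colonies with CreER. The macrophage elastase gene Mmp12 differed by -0.56 and -0.27, and the collagenase gene Mmp13 by -1.01 and 0.38. Trf, the transferrin relative of lactoferrin, was highest in LT-HSC CreER cells and differed by 0.34 and -0.18.

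Markers of other myeloid cells also varied over the 4 arrays. The summed linear signal of 16 measured monocyte and macrophage markers was 27182 in LT-HSC CreER, 40289 in LT-HSC mock, 36055 in ST-HSC CreER and 45824 in ST-HSC mock cells, with 13 past the floor and 10 and 12 of these 13 below 0 for CreER minus mock in LT-HSC and in ST-HSC colonies. The sum of the 8 granule genes of the specific type was 84687, 68353, 104690 and 85305 in the same order of groups. Each sum depends on the response of its probe sets, and the sums of the marker lists include genes under the floor. The sums therefore compare arrays within a list and do not give relative amounts of cell types. Over 13 measured mast cell and basophil markers the sum was 38032 in LT-HSC CreER, 45150 in LT-HSC mock, 15040 in ST-HSC CreER and 10347 in ST-HSC mock cells, and over 8 eosinophil markers it was 22953, 20716, 16394 and 7510. Of the cell cycle genes, 15 of 15 were above 0 for CreER minus mock in LT-HSC colonies, with a median of 0.33, and they had a median of 0.03 in ST-HSC colonies. Il5ra and Ccr3 of the eosinophil list and 8 of 9 lymphoid markers were under the floor on all arrays. Of 10 stromal and epithelial markers, Epcam, Krt18, Dcn and Lum were under it on all arrays. The other 6 (Col1a1, Col1a2, Col3a1, Pdgfrb, Krt8 and Cdh1) passed it on some array. Cdh1 was 11.27 in LT-HSC CreER, 11.78 in LT-HSC mock, 9.94 in ST-HSC CreER and 9.67 in ST-HSC mock cells. The 5 leukocyte markers, Ptprc among them, were above the floor on all 4 arrays, and 4 of the 5 had their highest level on ST-HSC CreER. For CreER minus mock, 5 of 5 were above 0 in ST-HSC colonies (median 0.17) and 1 of 5 in LT-HSC colonies (median -0.02). For LT-HSC minus ST-HSC, 5 of 5 were below 0 with CreER (median -0.27) and 3 of 5 with mock (median -0.09). The part of these other cells in the granule gene differences was not tested.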

How the data were processed

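Biotin-labelled RNA of colony-forming cells was hybridised to 4 arrays, 1 per group, per the labels' protocols. Values run between 2.21 and 14.82 and were taken as log2 expression, as the authors deposited them with 1 value for each probe set. Per the submitters' processing notes the tool was Affymetrix Expression Console; its summarisation and normalization settings were not stated in the labels. Since the columns have nearly equal distributions, no further normalization was applied. Such summaries can compress differences near background and near saturation.

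Of 35556 probe sets, 21789 had 1 gene symbol in the platform annotation, 1621 had several and 12146 had none here; 0 symbols changed against RefSeq (GRCm38.p6). A gene with several probe sets was represented by its probe set of highest mean level, giving 19938 genes; each member had 1. Differences of 2 arrays were counted at 2-fold with the higher array above its median over probe sets with 1 symbol, and carry no p-value. The additive fit used limma 3.58.1 in R 4.3.3 (lmFit, eBayes, Benjamini-Hochberg over 10411 genes, 1 residual and 4.27 prior degrees of freedom). Its p-values set each effect against the departure from additivity, that is, a CreER effect that differs between the populations, moderated toward a prior pooled over the fitted genes. They do not measure a spread between replicates. The labels do not tie arrays to separate animals, so whether this departure is technical or biological cannot be told apart. The additive fit was tested on simulated data in which 200 genes had the same CreER effect in both populations. A CreER effect that differs between the populations was not part of that simulation. Depth has no meaning for arrays; their number limits the precision.

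The members, lists and alternatives were chosen with earlier results of these data known. Named genes were the 9 members, up to 4 genes of each other list per comparison by size of difference, and the 3 nearest profiles of members with a range of at least 1. Other genes, the flanking genes and the promoter motifs were chosen after their values were seen. Alternatives were quantile, cyclic loess and median-centring normalization, the mean of probe sets, other floors, thresholds of 1.5-fold and 3-fold, a trend in the prior and an adjusted p of 0.1.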

Additional observations from a re-analysis of the deposited data

Results flagged for a closer look

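3 of the 9 granule genes differed in direction between 2 comparisons of the same kind, with 1 pair of arrays for each, so none of these differences was tested. The share of all genes that change direction between the same comparisons is not given here, so this count has no background. LT-HSC minus ST-HSC was -1.11 with CreER and 0.18 with mock for Olfm4, the olfactomedin of a neutrophil subset. It was -1.43 with CreER and 0.58 with mock for Mmp9, the gelatinase. For both genes the ST-HSC CreER array was the highest and the ST-HSC mock array the lowest of the 4. CreER minus mock was -0.040 in LT-HSC colonies and 0.30 in ST-HSC colonies for Mmp8, the neutrophil collagenase. The Mmp8 difference in LT-HSC colonies is smaller than the typical residual SD of the additive fit, 0.10.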

How the results depend on the processing

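Under quantile, cyclic loess and median-centring normalization and the mean of probe sets, all 9 members kept their highest level on the ST-HSC CreER array, 6 had their lowest on LT-HSC mock (5 after median centring), and the members' 36 pairwise differences moved by at most 0.07; the one change of sign was Lcn2 in LT-HSC colonies, -0.02 after median centring against 0.01. The members' median stayed between 0.36 and 0.40 for CreER minus mock in LT-HSC colonies, 0.30 and 0.32 in ST-HSC colonies, -0.46 and -0.40 for LT-HSC minus ST-HSC with CreER and -0.18 and -0.14 with mock. At 1.5-fold, 3 members (Ltf, Camp and Olfm4) passed for CreER minus mock in LT-HSC colonies against 0 at 2-fold, and 2 (Ltf and Camp) between the populations with mock against 0. At 3-fold, 0 differed between the populations with CreER against 2. The shares of all genes at 1.5-fold and 3-fold are not given here, so these counts have no background. In the additive limma fit for LT-HSC against ST-HSC, 0 members passed. Without a floor 1 member passed, where 888 of all 19938 genes did. With a trend in the prior 2 members passed, where 698 of 10411 genes did. At an adjusted p of 0.1, 2 members passed, and the share of all genes there is not given here. The cause of these changes was not tested. For CreER against mock 0 passed in each setting run, with Olfm4's limma adjusted p between 0.227 and 0.420. The labels give no replicate numbers, and the additive fit already compares CreER with mock within the populations. The 4 arrays limit every value, and pairwise differences have no error.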
